A study of Mus musculus with 24 samples.

Results

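The 10 genes followed here mark megakaryocytes and platelets, and they are described across mouse blood progenitors carrying or lacking the leukaemia fusion MLL::ENL. They were Gp1ba, Gp9, Itga2b, Itgb3, Gp6, Mmrn1, Pf4, Selp, Treml1 and Plek, and each was taken by its symbol from a table of raw read counts with 55487 distinct genes. All 10 were found at 1 row each, and 9 of the 10 passed the filter on low counts and entered the tests over 23059 genes. The exception was Gp6.

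The data were bulk RNA-seq libraries of 24 samples in 6 groups of 4, sorted as LSK cells (lineage-negative, SCA-1-positive, KIT-positive blood stem and progenitor cells) per the sample labels, while the series' design text describes lineage-negative KIT-positive progenitors. In the Tet-off model a human MLL::ENL (ME) transgene is expressed once doxycycline is withdrawn. The groups were wild type (WT) liver at postnatal day 0 (P0), ME liver at P0 after induction in the embryo at E10.5 (embryonic day), WT bone marrow at P28, ME marrow at P28 after induction at E10.5, ME marrow at P28 after induction at P0, and 4 P28 marrow libraries labelled ME, RLT Vav Txp and E10.5-induced. The labels do not expand RLT Vav Txp, and that wording is kept here. All groups at P0 came from liver and all groups at P28 from marrow, so age and tissue cannot be told apart. The transgene itself is not analysed here, which leaves its level in each group unchecked.

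Megakaryocytes are the large marrow cells that shed platelets, and they arise from stem and progenitor cells partly through progenitors that already carry megakaryocyte transcripts. Platelets catch on damaged vessel walls through the GPIb-V-IX receptor for von Willebrand factor and the collagen receptor GPVI, then bind fibrinogen through integrin αIIbβ3 and release the contents of their alpha granules. Many of these genes are also transcribed at low level in blood stem cells, and Itga2b (CD41) is an early marker of blood formation in the embryo.

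Promoter sequence is shown for 3 members, the pair with the highest fold changes in the RLT Vav Txp libraries (Selp and Pf4) and Gp9, whose mean level there was that of P28 WT. Each line gives the 250 bases before the RefSeq start on GRCm38.p6, 5′ to 3′ on the gene's strand, which is plus for all 3. Capitals mark GGAAG or its reverse complement CTTCC, the core read by ETS factors such as FLI1.

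Selp, chr1:164115014-164115263: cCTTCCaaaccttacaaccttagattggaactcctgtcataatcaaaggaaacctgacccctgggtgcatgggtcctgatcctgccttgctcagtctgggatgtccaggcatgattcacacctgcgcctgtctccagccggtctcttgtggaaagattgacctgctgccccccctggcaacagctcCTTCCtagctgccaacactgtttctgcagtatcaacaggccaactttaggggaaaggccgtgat
Pf4, chr5:90772185-90772434: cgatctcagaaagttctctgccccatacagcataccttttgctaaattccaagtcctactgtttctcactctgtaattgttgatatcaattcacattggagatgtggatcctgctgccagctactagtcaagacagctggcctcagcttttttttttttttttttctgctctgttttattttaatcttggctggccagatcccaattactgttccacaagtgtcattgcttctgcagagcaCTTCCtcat
Gp9, chr6:87777820-87778069: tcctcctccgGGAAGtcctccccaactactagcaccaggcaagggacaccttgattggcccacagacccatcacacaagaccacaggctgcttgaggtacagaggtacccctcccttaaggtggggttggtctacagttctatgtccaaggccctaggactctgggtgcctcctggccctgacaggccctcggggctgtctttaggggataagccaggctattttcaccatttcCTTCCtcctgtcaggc

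The match nearest the start begins 64 bases upstream in Selp, 9 in Pf4 and 16 in Gp9. GGAAG, searched on both strands, was found in 7 of the 9 members with a RefSeq promoter entry, beside 64.1% of 32851 promoter windows of the same length. The RefSeq starts of Itga2b, Mmrn1 and Plek lie 239, 19341 and 43663 bases inside their GENCODE gene spans, so those 3 windows may not be the promoter in use, and in the remaining 6 GGAAG was found in 5. AGATAA, 1 form of the GATA site, searched on both strands, was in 1 of the 9 (Gp6) beside 9.99% of windows. Other forms of that site, such as TGATAA, were not searched. TGAGTCA, the core of the NF-E2 site, was in 0 of the 9 beside 4.46%. These are letter matches in a short window. Itgb3 has no entry in that table. In the GENCODE annotation of the same build Selp spans chromosome 1 from 164115264 to 164150026, Pf4 chromosome 5 from 90772435 to 90773383, Gp9 chromosome 6 from 87778072 to 87779768 and Mmrn1 chromosome 6 from 60924976 to 60989378.

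Depth ran from 31233688 to 89774511 counts per library. Both P0 libraries numbered 1 stood apart from the other 6 P0 libraries in their markers of other blood cells: 10 macrophage markers summed to 139 CPM (counts scaled to a common library size) in the WT and 127 in the ME library, against 1307 to 1821 in the others. Member tests and list counts that use P0 libraries are therefore given with and without that pair. Markers of the labelled population were present in every group, with Kit between 688 and 1066 CPM and Ly6a (SCA-1) between 93.8 and 296 CPM as group means. All levels are CPM scaled by TMM factors, and a gene was called at an edgeR quasi-likelihood p under 0.05 after Benjamini-Hochberg adjustment over all genes tested. In bulk RNA a smaller share of cells of a type and less RNA per cell cannot be told apart.

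The RLT Vav Txp libraries held the highest mean level of 7 of the 9 tested members, and 5 of the 9 were called higher there than in P28 WT: Selp, Pf4, Itga2b, Itgb3 and Mmrn1. Over all genes 4.12% were called in that comparison, 2.64% in the higher direction. Against ME marrow induced at the same embryonic age but without the RLT Vav Txp label, the same 5 members were called higher, where 17.9% of all genes were called and 8.5% higher. The members' median log2 fold change was 2.20 against WT and 2.52 against E10.5-induced ME, beside 0.0072 and 0.115 over all genes tested. Both chains of the fibrinogen receptor were among the called members. The von Willebrand factor receptor members Gp1ba and Gp9, and Treml1, were not called by edgeR in either comparison. Each of them was called higher than in E10.5-induced ME by other fits described with them. The ME and RLT Vav Txp comparisons share the P28 WT libraries.

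**Figure D1:**
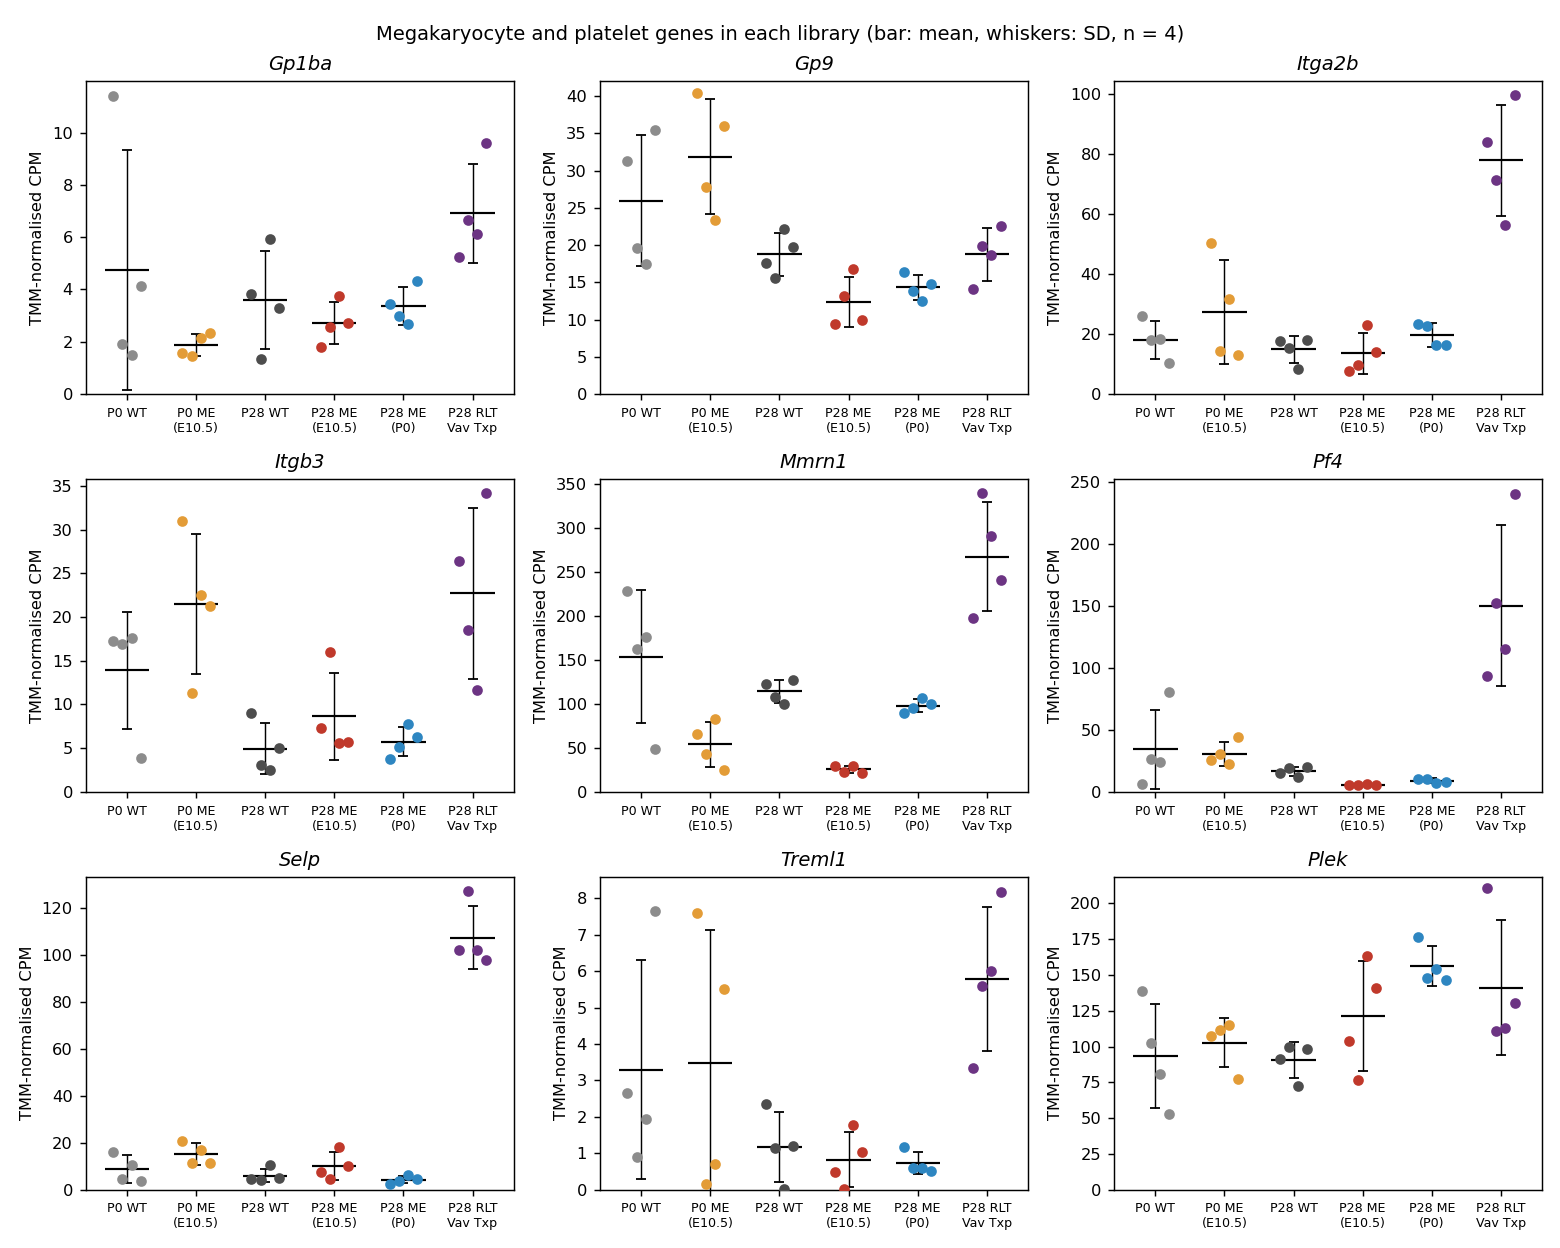
Level of each tested member in all 24 libraries, in TMM-normalised CPM on linear axes that start at 0; points are libraries, bars are group means and whiskers are SD (n = 4). RLT Vav Txp libraries lie above all others for Selp, Pf4 and Itga2b, Mmrn1 is lowest in E10.5-induced ME at P28, and Gp9 is highest at P0.

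Selp encodes P-selectin, an adhesion protein stored in alpha-granule membranes and moved to the platelet surface on activation. P28 WT libraries held it at 4.64, 4.10, 10.4 and 5.07 CPM, and RLT Vav Txp libraries at 102, 127, 102 and 98.0 CPM. Every RLT Vav Txp library was higher than every library of the other 5 groups, whose highest value was 20.9 CPM in a P0 ME library. The log2 fold change was 4.15 (SE 0.47) against P28 WT, a 17.7-fold difference (edgeR quasi-likelihood test, adjusted p = 4.36e-06). Against E10.5-induced ME, where Selp stood at 7.47, 4.71, 18.1 and 10.1 CPM, it was 3.41 (SE 0.45; edgeR adjusted p = 2.64e-05).

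Treml1, the other granule-membrane member, encodes TLT-1, a receptor carried in the same granules. Its counts were low: 2.35, 1.14, 0.012 and 1.19 CPM in P28 WT and 3.34, 5.60, 6.01 and 8.18 CPM in RLT Vav Txp. The groups did not overlap, but the SE of 1.06 around a log2 fold change of 2.31 left it uncalled (edgeR adjusted p = 0.287). Against E10.5-induced ME, at 0.477, 0.026, 1.77 and 1.03 CPM, the value was 2.81 (SE 1.08; edgeR adjusted p = 0.0721). DESeq2, voom and a fit of these 2 groups alone called Treml1 higher there (adjusted p = 0.0172, 0.000793 and 0.0175). They called 24.5%, 34.9% and 31.6% of all genes.

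Pf4 encodes platelet factor 4 (CXCL4), a chemokine released from alpha granules. P28 WT libraries held 15.0, 18.9, 12.3 and 20.1 CPM and RLT Vav Txp libraries 93.1, 152, 115 and 240. E10.5-induced ME libraries held 5.50, 5.66, 6.28 and 5.90 CPM, and P0-induced ones 10.55, 10.53, 6.96 and 8.01. RLT Vav Txp lay above every other library, and both ME groups lay below every WT library at P28. The log2 fold change of RLT Vav Txp was 3.18 (SE 0.47) against WT and 4.68 (SE 0.50) against E10.5-induced ME, a 25.7-fold difference (edgeR adjusted p = 0.000177 and 2.37e-06).

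Mmrn1 encodes multimerin 1, a large alpha-granule protein that binds coagulation factor V and is also found in endothelium. Its values were 123, 108, 99.7 and 128 CPM in P28 WT and 198, 340, 291 and 241 in RLT Vav Txp. ME marrow induced at E10.5 had 29.1, 23.1, 29.7 and 21.4 CPM, and ME marrow induced at P0 had 89.4, 95.3, 107 and 100.3. The 3 kinds of ME marrow thus held separate ranges, with only P0-induced ME overlapping WT. RLT Vav Txp exceeded E10.5-induced ME by 3.37 (log2, SE 0.35), or 10.4-fold (edgeR adjusted p = 1.26e-06). The E10.5-induced libraries are part of the difference for which Mmrn1 was singled out, so this p is not free of that choice. The excess over WT was smaller, at 1.22 (SE 0.32; edgeR adjusted p = 0.0281), and its call was lost when any 1 of 6 of the 8 libraries was left out (each P28 WT library, or RLT Vav Txp library 2 or 3), with adjusted p up to 0.100.

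Itga2b and Itgb3 encode the αIIb and β3 chains of the fibrinogen receptor. Itga2b stood at 17.8, 15.2, 8.52 and 18.1 CPM in P28 WT and at 84.0, 71.5, 56.4 and 99.8 in RLT Vav Txp, with no overlap. Its log2 fold change was 2.39 (SE 0.39) against WT and 2.52 (SE 0.39) against E10.5-induced ME (edgeR adjusted p = 0.000412 and 0.000143). Itgb3 stood at 9.03, 3.11, 2.53 and 5.07 CPM in P28 WT and at 26.4, 18.5, 11.6 and 34.2 in RLT Vav Txp, again without overlap, and rose by 2.20 (SE 0.48; edgeR adjusted p = 0.00627). Against E10.5-induced ME, at 7.35, 16.0, 5.63 and 5.67 CPM, the Itgb3 groups overlapped at 1.39 (SE 0.47; edgeR adjusted p = 0.0392). That call was lost when any of 6 libraries was left out, RLT Vav Txp 1, 2 and 4 and E10.5-induced ME 1, 3 and 4, with adjusted p up to 0.134.

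Gp9 and Gp1ba encode GPIX and GPIbα, subunits of the von Willebrand factor receptor, and neither was called against P28 WT by edgeR, DESeq2 or voom. Gp9 stood at 17.6, 15.6, 22.2 and 19.7 CPM in P28 WT and at 14.1, 19.8, 18.7 and 22.5 in RLT Vav Txp, with means of 18.8 ± 2.85 and 18.8 ± 3.54 CPM (SD, n = 4). Gp1ba stood at 3.83, 1.36, 5.93 and 3.29 CPM in P28 WT and at 5.26, 6.65, 6.11 and 9.62 in RLT Vav Txp, with a fitted log2 difference of 0.94 (SE 0.51) and an edgeR adjusted p of 0.417. Against E10.5-induced ME the edgeR values were 1.34 (SE 0.52; adjusted p = 0.0720) for Gp1ba, whose groups did not overlap, and 0.60 (SE 0.25; adjusted p = 0.0922) for Gp9. DESeq2 called both higher there (adjusted p = 0.0256 and 0.0374), as did voom (0.00253 and 0.0184), where they called 24.5% and 34.9% of all genes. A fit of these 2 groups alone, which called 31.6% of all genes, called Gp1ba (0.00876), and edgeR called Gp9 without RLT Vav Txp library 1 (0.0498).

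Plek, which encodes pleckstrin, a major protein kinase C substrate of platelets also present in leukocytes, stood at 91.3, 99.98, 72.3 and 98.6 CPM in P28 WT and at 211, 111, 113 and 130 in RLT Vav Txp. Its groups did not overlap, and the log2 fold change of 0.64 (SE 0.25) was not called (edgeR adjusted p = 0.180). In all, 7 of the 9 members had RLT Vav Txp wholly above P28 WT, beside 7.02% of all genes, and 6 of the 9 had it wholly above E10.5-induced ME, beside 11.6%.

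Gp6 encodes GPVI, the collagen receptor, and had 0 counts in all 4 RLT Vav Txp libraries. The floor of 3 counts is the most that a count of 0 allows for counting error. Elsewhere it was seen mainly in single libraries, with 156 counts in P0 WT library 4, 68 in P28 WT library 1 and 19 in P0 ME library 3, and 0 to 6 counts in the remaining libraries.

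Per kilobase of exon, a scale on which genes can be compared, the RLT Vav Txp level was highest for Pf4 at 208 ± 90.0 CPM per kilobase and then for Mmrn1 at 45.6 ± 10.51 (SD, n = 4). Plek followed at 31.5 ± 10.54, Selp at 24.4 ± 3.04 and Gp9 at 21.3 ± 4.02, and these 3 means differ by less than the SD of Plek. In P28 WT the levels of Pf4, Gp9, Plek and Mmrn1 lay close together, at 23.0 ± 4.97, 21.3 ± 3.24, 20.2 ± 2.84 and 19.5 ± 2.20 CPM per kilobase, while Selp was at 1.37 ± 0.66 and Itgb3 at 0.84 ± 0.50.

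**Figure D2:**
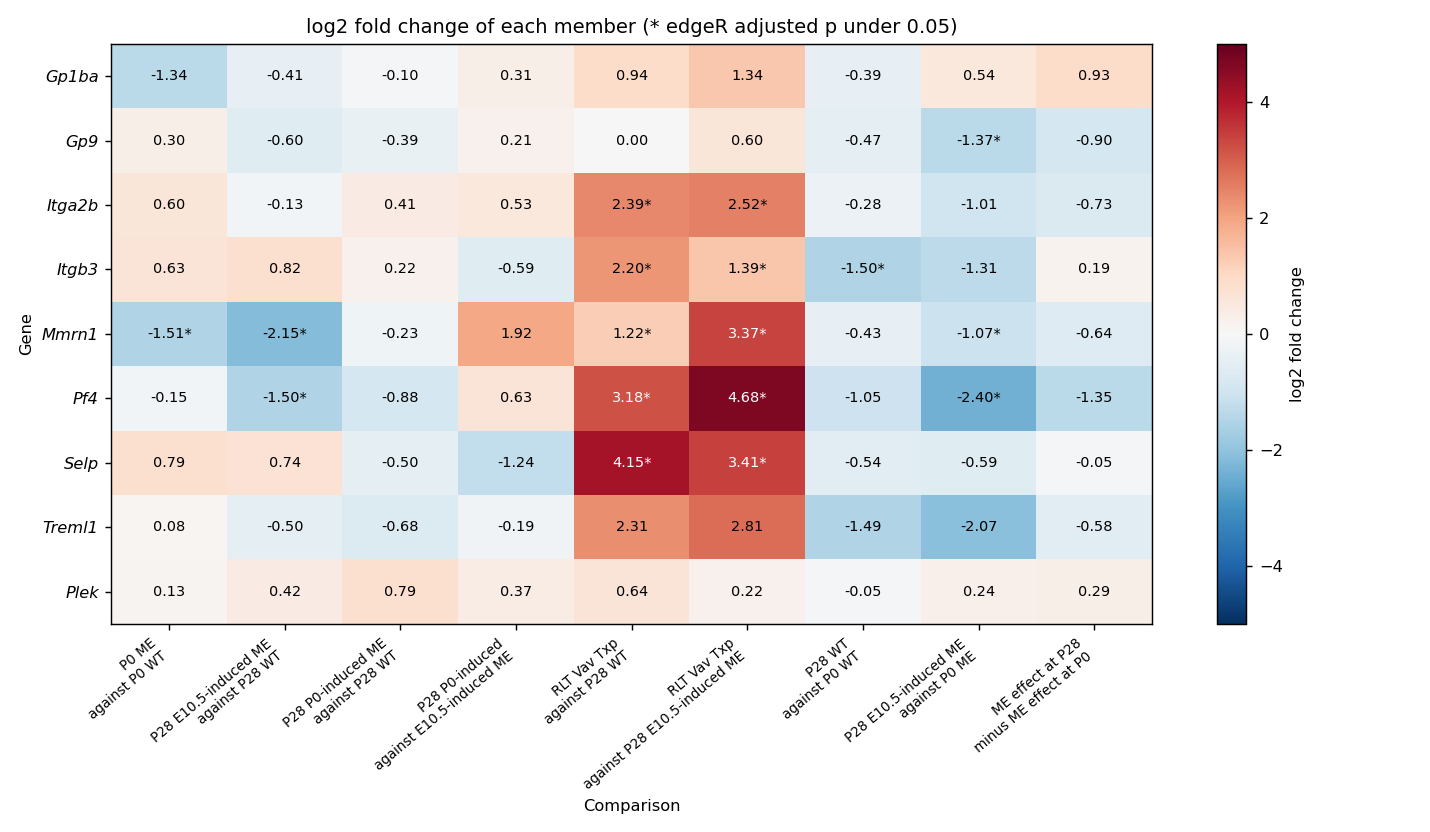
Fitted log2 fold change of the 9 tested members (vertical) in the 9 comparisons (horizontal), with colour from blue (lower) to red (higher) and an asterisk at an edgeR adjusted p under 0.05; for Mmrn1 in P0-induced against E10.5-induced ME no test is given, since that difference was known when the members were chosen. The 2 RLT Vav Txp columns hold 5 called rises each, up to 4.68 for Pf4.

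Markers of other cells moved with the RLT Vav Txp label. Of 10 macrophage markers 9 were called higher than in P28 WT and 10 higher than in E10.5-induced ME, and their summed level was 3250, 761, 2285 and 2046 CPM in RLT Vav Txp libraries 1 to 4, against 83.2 to 117 in P28 WT and 50.9 to 80.1 in E10.5-induced ME. None of these markers had 0 counts in all libraries of a group. Within that group the library with the lowest macrophage sum, RLT Vav Txp 2, was highest for 2 of the 9 tested members (Selp and Mmrn1) and lowest for 1 (Plek). Library 1, with the highest sum, was highest for 1 (Plek) and lowest for 5. P0 libraries 2 to 4 of both genotypes had macrophage sums of 1307 to 1821 CPM. Their Selp, at 3.56 to 17.2 CPM, was below every RLT Vav Txp library, and their Plek, at 52.6 to 115 CPM, overlapped that group. What these orders mean for the members' rise was not tested.

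Of 8 endothelial markers 0 were called higher and 1 lower against P28 WT, with sums of 228 to 264 CPM in RLT Vav Txp and 231 to 243 in WT. Of 10 erythroid markers 1 was called higher, with sums of 3286 to 3779 against 1983 to 2347 CPM. Of 9 mast cell and basophil markers 1 was called higher, with sums of 88.8 to 206 against 7.90 to 43.6 CPM. Of 8 stem and progenitor markers 3 were called lower (Hlf, Cd34 and Flt3) and 1 higher (Slamf1), with sums of 1733 to 2736 against 3962 to 4480 CPM. Of 8 neutrophil markers 0 were called higher, with sums of 1957 to 6579 against 523 to 787 CPM, and of 5 hepatocyte markers 1 was, with sums of 278 to 718 against 226 to 248 CPM. The part of these cells in the members' rise was not tested.

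**Figure D3:**
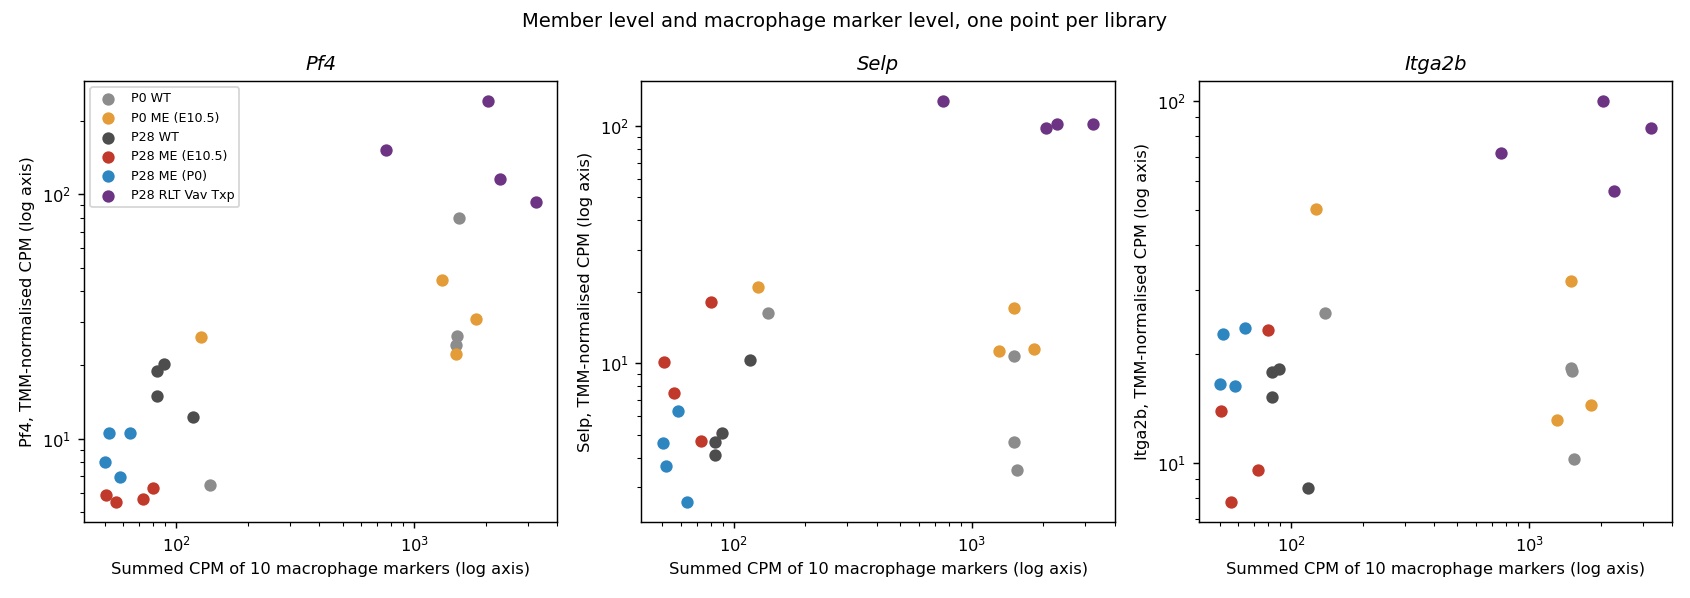
Level of Pf4, Selp and Itga2b (vertical, TMM-normalised CPM) against the summed CPM of 10 macrophage markers (horizontal), 1 point per library, log axes. RLT Vav Txp and most P0 libraries share the high macrophage range. Selp and Itga2b are higher in RLT Vav Txp than in any P0 library, and the part of macrophages in these levels was not tested.

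Other genes of the lineage were read from a list of 34, of which 33 were tested. Against P28 WT, 8 of the 33 were called higher in RLT Vav Txp and 1 lower, with a median log2 fold change of 0.63. The largest changes were in Clec1b, the podoplanin receptor CLEC-2, at 7.60 (SE 1.22), Thbs1, thrombospondin 1, at 5.09 (SE 1.27), Cavin2 at 4.78 (SE 0.67) and F13a1, coagulation factor XIII A chain, at 4.11 (SE 0.74). Clec1b was close to absent in P28 WT, with 0 counts in 3 libraries and 6 in the fourth, against 168 to 499 counts in RLT Vav Txp. The Thbs1 call was lost when any of P28 WT 1, 2 or 3 or RLT Vav Txp 4 was left out (adjusted p up to 0.0986), and voom called neither Thbs1 nor F13a1 (adjusted p = 0.513 and 0.264). It was also lost for Thbs1 without the filter on low counts (edgeR adjusted p = 0.0538). Clec1b, Thbs1 and F13a1 are also expressed by macrophages and monocytes. Macrophage markers rose in the same libraries, and no list of monocyte markers was read. The part of these cells in the 3 rises was not tested.

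By role, 3 of 6 granule and secreted protein genes, 2 of 10 receptor genes, 1 of 10 cytoskeletal and granule-formation genes and 2 of 7 transcription factor and thrombopoietin receptor genes were called higher against P28 WT. The 1 lower call was a receptor gene. Against E10.5-induced ME, 14 of the 33 were called higher and 2 lower. Clec1b at 5.69 (SE 1.07), Cavin2 at 4.48 (SE 0.66), Rab27b, a small GTPase of granule secretion, at 2.47 (SE 0.59) and Gp5, the GPV subunit of the von Willebrand factor receptor, at 2.46 (SE 0.43) moved most. Gp5 stood at 39.96, 49.0, 36.1 and 37.1 CPM in RLT Vav Txp and at 6.00, 5.27, 13.1 and 5.00 CPM in E10.5-induced ME, with no overlap. It was also called higher than in P28 WT, at 2.07 (SE 0.42; edgeR adjusted p = 0.00335). None of the 7 transcription factor and thrombopoietin receptor genes was called by edgeR against E10.5-induced ME. At an unadjusted edgeR p under 0.05 were 4 of the 7, beside 7137 of 23059 genes. Wholly below were 3 of the 7, and the share over all genes in that direction is not given here.

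**Figure D4:**
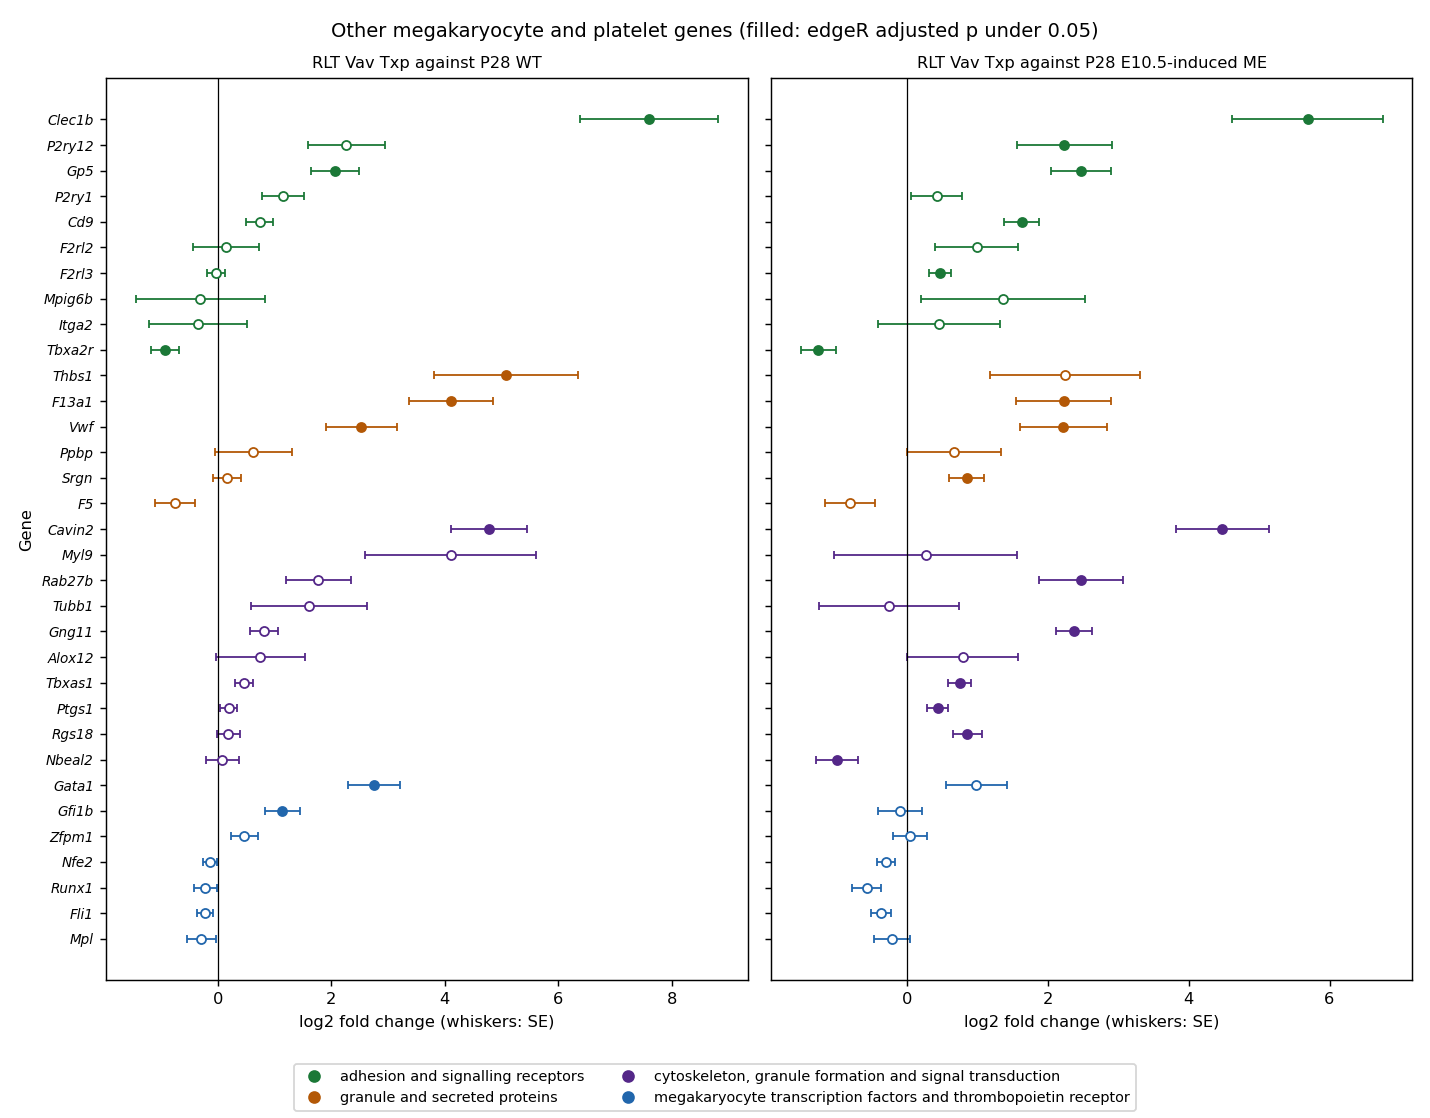
Log2 fold change (horizontal, whiskers SE) of the 33 tested genes of the wider list in RLT Vav Txp against P28 WT (left) and against E10.5-induced ME (right), coloured by role, with filled points at an edgeR adjusted p under 0.05. Called rises on the left fall in every role, with 2 of the 7 transcription factor and thrombopoietin receptor genes among them. On the right that role runs from -0.58 (Runx1) to 0.99 (Gata1), none of them called, and the called rises lie in the other roles.

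In marrow at P28, 2 of the 9 members were called lower in ME induced at E10.5 than in WT, Mmrn1 and Pf4, where 12.3% of all genes were called and 4.44% lower. Both lay wholly below WT, as did 11.6% of all genes. Mmrn1 fell by 2.15 (log2, SE 0.33), a 4.44-fold difference (edgeR adjusted p = 0.000803), and stayed called under every alternative and with any 1 library left out. These E10.5-induced libraries also enter the induction-time difference for which Mmrn1 was singled out. Its p here, and its place in the 2 of 9, carry that choice. Pf4 fell by 1.505 (SE 0.44; edgeR adjusted p = 0.0286). Only the removal of P28 WT 3 kept that Pf4 call, and each of the other 7 single-library removals ended it, with adjusted p up to 0.0864. The remaining 7 members had log2 fold changes between -0.60 (Gp9) and 0.82 (Itgb3). Gp9 was not called by edgeR but was called lower by DESeq2 (adjusted p = 0.0391), by voom (0.0278) and in a fit of these 2 groups alone (0.0229), which called 19.1%, 28.2% and 34% of all genes. The members' median was -0.41 beside -0.10 over all genes.

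Of the wider list, 3 genes rose and 4 fell in E10.5-induced ME. Gata1 and Gfi1b, transcription factors that drive megakaryocyte and red cell formation, rose by 1.77 (SE 0.45; edgeR adjusted p = 0.0123) and 1.24 (SE 0.31; edgeR adjusted p = 0.012). Nbeal2, needed to form alpha granules, rose by 1.08 (SE 0.30), and Gng11, a G protein gamma subunit, fell by 1.56 (SE 0.25; edgeR adjusted p = 0.000991). The Gata1 call was lost without P28 WT 1 (adjusted p = 0.0584), the Gfi1b call without P28 WT 1 or 2 (up to 0.0737) and the Nbeal2 call without P28 WT 1 or 2 or E10.5-induced ME 3 (up to 0.0983). The Nbeal2 call was also lost without the filter on low counts (edgeR adjusted p = 0.0686). Markers of other cells differed too. Of 10 macrophage markers 0 were called, with 2 at an unadjusted edgeR p under 0.05 beside 6163 of 23059 genes. Still, 9 were negative, 5 lay wholly below WT, the median was -1.14, and the sums of 50.9 to 80.1 CPM did not overlap the 83.2 to 117 of WT. Of 8 endothelial markers 1 was called lower (Tie1, at -0.78), with sums of 207 to 288 against 231 to 243 CPM, and of 9 mast cell and basophil markers 1 was (Prss34, at -6.67), with sums of 15.8 to 32.6 against 7.90 to 43.6 CPM. These 2 genes were named after their values were seen. The part of these cells in the falls of Mmrn1 and Pf4 was not tested.

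When ME was induced at P0 instead, 0 of the 9 members were called against P28 WT by edgeR. At an unadjusted edgeR p under 0.05 were 1 member (Plek) and 4648 of 23059 genes. After adjustment 1.57% of all genes were called, and 0.0289% to 2.68% with 1 library left out. Mmrn1 was at 97.9 ± 7.31 CPM against 115 ± 12.9 (SD, n = 4), a log2 difference of -0.23 (SE 0.32; edgeR adjusted p = 0.750). The P0-induced libraries are the other side of the difference that singled Mmrn1 out. Its p here, and its place in the 0 of the 9, carry that choice. Pf4 lay below WT and Plek above it without overlap, at -0.88 (SE 0.44; edgeR adjusted p = 0.262) and 0.79 (SE 0.25; edgeR adjusted p = 0.0824). Of all genes, 24.8% had these groups apart. Voom with quality weights and an edgeR fit of these 2 groups alone each called both Pf4 and Plek, 2 of 9 members, where they called 21.7% and 27.9% of all genes, and DESeq2 called 0 beside 10.6%. Macrophage marker sums were 50.4 to 63.9 CPM, below every P28 WT library, with 7 of the 10 markers wholly below and 0 called, and their part in the Pf4 value was not tested. Of the wider list 0 of 33 were called, with 5 at an unadjusted p under 0.05, 4 called by DESeq2 and 4 by voom.

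Set side by side, P0-induced ME had 3.79 times the Mmrn1 of E10.5-induced ME, a log2 difference of 1.92 (SE 0.33), and the lowest P0-induced library at 89.4 CPM was far above the highest E10.5-induced library at 29.7. This difference was the reason Mmrn1 was singled out, so it is given as a description. In this comparison 0.0477% of all genes were called, and of the other 8 tested members 0 were called by edgeR. At an unadjusted edgeR p under 0.05 was 1 of the 8 (Selp), beside 998 of 23059 genes. Voom called Selp and Plek, 2 of these 8, where it called 10.1% of all genes, and the edgeR fit of these 2 groups alone called Pf4, 1 of 8 beside 6.35%. Selp stood at 2.60, 3.69, 6.28 and 4.597 CPM in P0-induced ME, overlapping E10.5-induced ME, with a log2 difference of -1.24 (SE 0.42; edgeR adjusted p = 0.874). Pf4 did not overlap and was 0.63 (SE 0.44) higher in P0-induced ME, and 4.58% of all genes had P0-induced ME wholly above. Of the wider list 0 of 33 were called by edgeR, with 4 at an unadjusted p under 0.05, 1 called by DESeq2 (beside 0.401% of all genes) and 5 by voom.

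In newborn liver Mmrn1 was the 1 member called between ME and WT. It stood at 228, 163, 177 and 48.5 CPM in P0 WT and 66.0, 43.0, 82.5 and 25.2 in P0 ME, where the WT library 4 fell inside the ME range. Mmrn1 fell by 1.51 (log2, SE 0.33; edgeR adjusted p = 0.0268), 1 called member of 9 beside 0.642% of all genes and 0.278% in the lower direction. Without both P0 libraries numbered 1 the fall was 1.36 and not called (adjusted p = 0.0704), 0 of the 9 members were called and 0.998% of all genes were, and the call was also lost without P0 WT 3, P0 ME 2 or P0 ME 4. A fit of the P0 groups alone gave the same 1.51 with an adjusted p of 0.784. Pf4 varied most among the WT libraries, at 6.48, 26.3, 24.2 and 80.1 CPM, and covered the ME range of 22.3 to 44.5. Of the wider list 0 of 33 were called by edgeR, DESeq2 or voom, and 0 without that pair. At an unadjusted edgeR p under 0.05 were 3 of the 33, beside 3251 of 23059 genes. Mast cell and basophil markers summed to 941 to 10745 CPM in P0 WT and 48.1 to 836 in P0 ME, without overlap. Of these 9 markers 8 were lower in ME, with a median of -1.52, 6 at an unadjusted edgeR p under 0.05 and 0 called; without that pair the median was -0.60 and 4 were under 0.05. Their part in the Mmrn1 fall was not tested.

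The change of the ME effect between ages was tested as an interaction. None of the 9 members was called by edgeR, beside 0.72% of all genes. At an unadjusted edgeR p under 0.05 were 2 of the 9 (Gp9 and Pf4), beside 3815 of 23059 genes. Mmrn1 gave -0.64 (SE 0.45; edgeR adjusted p = 0.504). This contrast uses the E10.5-induced P28 libraries of the difference that singled Mmrn1 out. Its p values here, and its place among the 9, carry that choice, so no conclusion is drawn from them. Pf4 gave -1.35 (SE 0.62; edgeR adjusted p = 0.272), was called by voom (adjusted p = 0.0406, beside 2.79% of all genes), and was called without P0 WT 4, the library with the highest Pf4 at that age (-2.16, adjusted p = 0.0127). Without both P0 libraries numbered 1 the values were -0.78 for Mmrn1 and -1.08 for Pf4 (adjusted p = 0.390 and 0.235), with 0 of the 9 members called beside 0.973% of all genes. Of the wider list 0 of 33 were called, with and without that pair, with 4 at an unadjusted p under 0.05, 1 called by DESeq2 (beside 3.37% of all genes) and 0 by voom.

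From newborn liver to P28 marrow, all 9 members had a negative log2 difference in WT and 1 was called, beside 7.68% of all genes and 4.56% in the lower direction. The called member was Itgb3, at 17.2, 16.9, 17.6 and 3.91 CPM in P0 WT against 2.53 to 9.03 in P28 WT, and it fell by 1.496 (log2, SE 0.47; edgeR adjusted p = 0.0492). The groups overlapped through P0 WT library 4, and removing any of 6 single libraries ended the call (P0 WT 1, 2 or 3, P28 WT 2, 3 or 4; adjusted p up to 0.153). Without both P0 libraries numbered 1, Itgb3 was not called (adjusted p = 0.0739) and Pf4 was, at -1.39 (adjusted p = 0.00823), where 11.7% of all genes were called. Gp1ba and Plek were then positive, at 0.52 and 0.20, and not called.

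In ME induced at E10.5, 3 of the 9 members were lower at P28 than at P0: Gp9, Pf4 and Mmrn1, where 18.2% of all genes were called and 8.45% lower. Gp9 stood at 40.4, 27.8, 23.3 and 35.9 CPM at P0 and 9.46, 13.2, 16.8 and 9.95 at P28, and fell by 1.37 (SE 0.25; edgeR adjusted p = 0.000588). Pf4 stood at 26.0, 30.7, 22.3 and 44.5 CPM at P0 and close to 6 in all P28 libraries, and fell by 2.40 (SE 0.46; edgeR adjusted p = 0.000942). Both pairs of groups were apart, as were 11% of all genes in that direction. Mmrn1 overlapped and fell by 1.07 (SE 0.32; edgeR adjusted p = 0.0235), a call lost without P0 ME 1 or 3 or without E10.5-induced P28 ME 1, 2 or 4 (adjusted p up to 0.0986). This test too uses the E10.5-induced P28 libraries of the difference that singled Mmrn1 out. Itgb3 and Itga2b, at -1.31 and -1.01, lay just outside the threshold (edgeR adjusted p = 0.05002 and 0.0618), and DESeq2, voom and RLE scaling each called both, where they called 24.7%, 25.6% and 17.7% of all genes. Without both P0 libraries numbered 1, Gp9, Pf4 and Mmrn1 were still called, at -1.23, -2.47 and -0.96 (adjusted p = 0.00173, 2.35e-05 and 0.0438), beside 21.4% of all genes. Itgb3 and Itga2b were then at -1.08 and -0.54 (adjusted p = 0.122 and 0.289).

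Of the wider list, 12 of 33 genes differed between ages in WT (4 higher at P28, 8 lower) and 15 in ME (4 higher, 11 lower). Clec1b, Thbs1 and F13a1 fell most in both genotypes, by 8.13, 7.43 and 5.53 in WT and by 6.09, 5.66 and 4.92 in ME on the log2 scale. P2ry12, the platelet ADP receptor, fell by 2.49 in WT (SE 0.68; edgeR adjusted p = 0.0241), a call lost without P0 WT 2 or 4 or P28 WT 2 or 4 (adjusted p up to 0.0797). Voom did not call Thbs1, F13a1 or P2ry12 in WT (adjusted p = 0.307, 0.0917 and 0.0575). An edgeR fit of only the groups compared did not call P2ry12 either (adjusted p = 0.114). F5, coagulation factor V, fell by 2.89 in ME (SE 0.38). With that pair of P0 libraries removed the counts were 12 in WT (4 higher, 8 lower) and 17 in ME (5 higher, 12 lower), and each of the genes named here was still called.

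Markers of most other blood cells moved between these ages as well. Called lower in WT and in ME were 8 and 10 of 10 macrophage markers, 6 and 8 of 8 neutrophil markers, 6 and 5 of 10 erythroid markers, 5 and 6 of 9 mast cell and basophil markers, 2 and 5 of 5 hepatocyte markers and 1 and 3 of 8 endothelial markers. Called higher were 3 of 8 stem and progenitor markers in each genotype and 1 erythroid marker in WT. Without that pair all macrophage and neutrophil markers were called lower in both genotypes, and 5 of 8 stem and progenitor markers were called higher in each. Called lower in WT and in ME were then 8 and 7 erythroid, 5 and 7 mast cell and basophil, 3 and 5 hepatocyte and 1 and 3 endothelial markers. In WT 1 erythroid and 1 endothelial marker were then called higher. The part of these cells in the members' and wider list's falls was not tested.

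Across the 24 libraries the 5 genes whose centred log2 CPM profile lay nearest to that of Mmrn1, among 9681 candidates, were Art4, Tie1, Il11ra1, Gng11 and Gata3, with root mean square differences of 0.742 to 0.815 log2 units, beside 1.28 for the median candidate. Gng11 is on the wider list. Art4 was at 27.9 ± 6.48 CPM in P28 WT and 46.2 ± 11.5 in RLT Vav Txp, with 13.5 ± 1.89 after E10.5 induction and 23.1 ± 2.79 after P0 induction of ME. Gata3, in the same order, was at 21.7 ± 4.64, 31.9 ± 7.21, 4.42 ± 1.11 and 21.3 ± 2.06 CPM (SD, n = 4 each). Nearest to Pf4 were Cd302, Gdf3, Cd68, Fcgr2b and Cenpv, at 0.766 to 0.824 log2 units beside 1.71 for the median candidate. Cd68, a macrophage marker, was at 31.3 ± 6.84 CPM in P28 WT and 187 ± 81.1 in RLT Vav Txp.

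Among the E10.5-induced ME libraries at P28, library 3 was highest for 8 of the 9 members, Itgb3 being the exception, and among the RLT Vav Txp libraries, library 4 was highest for 6 of the 9. Mean levels of Mmrn1 ran from RLT Vav Txp at 268 ± 61.7 CPM through P0 WT at 154 ± 75.8, P28 WT at 115 ± 12.9, P0-induced ME at 97.9 ± 7.31 and P0 ME at 54.2 ± 25.2 to E10.5-induced P28 ME at 25.8 ± 4.20 (SD, n = 4). Between neighbours in that order only P0-induced ME and P0 ME did not overlap.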

How the data were processed

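The authors deposited 1 table of raw read counts per Ensembl gene for all 24 libraries. Per the labels' protocols, total RNA came from a Qiagen RNeasy Plus extraction, followed by Clontech SMARTer library chemistry. The submitters' processing notes name STAR 2.7.9a, Subread, featureCounts 2.0.3 and GRCm38. Strand setting, treatment of reads with several matches and annotation release are not given in the sources used here. The table had 55774 rows, and 287 exact repeats of an ID were dropped. Exons of Selp, Plek, Clec1b, Thbs1, F5, F13a1, P2ry12 and Nbeal2 overlap those of another annotated gene, so reads of such pairs may not be separable. Positions come from GENCODE M21 and promoters from RefSeq (GRCm38.p6).

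Genes passed edgeR filterByExpr with a minimum count of 10. After TMM scaling, 1 robust quasi-likelihood model took all 24 libraries, with a mean for each group (18 residual degrees of freedom), giving 9 comparisons. RLT Vav Txp titles carry no replicate number, and those libraries were numbered in accession order. The design text calls the 4 samples of a group biological replicates. Likeness used log2 CPM with a prior count of 2. All 10 members were named in every comparison, and of 34 further genes at most the 4 with the largest called change. Members, lists and rules were chosen with earlier results of these data known. The procedure was tested on simulated data. Alternatives were RLE factors, DESeq2, limma voom with quality weights, no filter, only the groups compared, the numbered libraries alone, without or with the replicate number as a block, and removal of single libraries. Removal of both P0 libraries numbered 1 was added after seeing the data. Versions were edgeR 4.0.16, DESeq2 1.42.0 and limma 3.58.1 under R 4.3.3, with pandas 2.3.3 and matplotlib 3.10.9 under Python 3.11.15. PCR copies of a molecule are not separated in read counts, so the floor of 3 counts covers counting error alone.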

Additional observations from a re-analysis of the deposited data

Results flagged for a closer look

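For the 9 tested members, a single library lay far from the other 3 of its group in 5 of 54 groups of 4 libraries, where chance alone marks about 1 in 20. Itgb3 was low in P0 WT 4 at 3.91 CPM, against 16.9 to 17.6 in the others, and high in E10.5-induced P28 ME 2 at 16.0 CPM, against 5.63 to 7.35. Selp was high in P28 WT 3 at 10.4 CPM, against 4.10 to 5.07, and in RLT Vav Txp 2 at 127 CPM, against 98.0 to 102. Treml1 was high in P0-induced ME 1 at 1.18 CPM, against 0.522 to 0.610.

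Gp6, which was not tested for lack of counts, was seen mainly in 1 library of a group: 2.61 CPM in P0 WT 4, 1.90 in P28 WT 1, 0.0686 in E10.5-induced P28 ME 4 and 0.0356 in P0-induced ME 1. In 3 of these 4 groups the other libraries had 0 counts, so any count at all stands apart, and the 4 are not read against the chance rate.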

How the results depend on the processing

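Mmrn1 stayed lower in E10.5-induced ME than in P28 WT, and Selp, Pf4 and Itga2b stayed higher in RLT Vav Txp, past the threshold under every alternative. That Mmrn1 call uses libraries of the difference that singled it out. The number of called members fell to 0 without the filter on low counts, in a fit of only the groups compared and without both P0 libraries numbered 1 for P0 ME against WT (1 in the report). Without the filter it was also 1 (of 2) for E10.5-induced ME against P28 WT, and 0 (of 1) for P28 against P0 WT. For P28 against P0 WT it was 0 under RLE factors, voom, only the groups compared, and the numbered libraries with and without the replicate block. With only the groups compared it was 2 for P0-induced ME against WT and, Mmrn1 set aside as the gene that difference singled out, 1 for P0-induced against E10.5-induced ME. Voom gave 2, 2, 8, 5 and 1 for P0-induced ME against WT, P0-induced against E10.5-induced ME, RLT Vav Txp against E10.5-induced ME, E10.5-induced ME at P28 against P0, and the interaction. DESeq2 gave 8 for RLT Vav Txp against E10.5-induced ME and, like RLE, 5 for E10.5-induced ME at P28 against P0. Leaving out 1 library gave 0 to 1 called members for P0 ME against WT, 1 to 2 for E10.5-induced ME against WT, 0 to 1 for P28 against P0 WT, 2 to 5 for E10.5-induced ME between ages and 0 to 1 for the interaction. Besides the Mmrn1 call at P0, member calls lost without the filter were those of Pf4 in E10.5-induced ME against WT (edgeR adjusted p = 0.0862), Mmrn1 in RLT Vav Txp against WT (0.085), Itgb3 in RLT Vav Txp against E10.5-induced ME (0.0541), Itgb3 in P28 against P0 WT (0.0759) and Mmrn1 in ME between ages (0.0606). Of the named wider-list genes, Nbeal2 in E10.5-induced ME against WT (0.0686) and Thbs1 in RLT Vav Txp against WT (0.0538) lost their calls. The cause was not tested.

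Directions turned only for uncalled values. With voom these were Pf4 at 0.45 and Treml1 at -0.34 (P0 ME against WT), Gp1ba at 0.064 and Treml1 at 0.30 (P0-induced ME against WT), Treml1 at 1.07 (P0-induced against E10.5-induced ME) and Gp1ba at 0.14 (P28 against P0 WT). Without both P0 libraries numbered 1 they were Treml1 at -0.73 (P0 ME against WT), Gp1ba at 0.52 and Plek at 0.20 (P28 against P0 WT), and Gp1ba at -0.053 and Treml1 at 0.24 (interaction). Gp9 in RLT Vav Txp against WT was 0.0012 and turned to -0.018 with RLE, -0.00399 without the filter, -0.019 with DESeq2 and -0.00657 with only the groups compared. Leaving out 1 library turned the direction of 14 uncalled values. For P0 ME against WT they ranged from -0.54 to 0.65 (Pf4), -0.10 to 0.34 (Plek) and -0.64 to 0.89 (Treml1). For P28 WT against P0 WT they ranged from -0.74 to 0.52 (Gp1ba) and -0.26 to 0.20 (Plek). For E10.5-induced ME against WT they ranged from -0.51 to 0.10 (Itga2b) and -1.20 to 0.058 (Treml1). For P0-induced ME they ranged from -0.39 to 0.25 (Gp1ba, against WT) and -0.59 to 0.52 (Treml1, against E10.5-induced). For RLT Vav Txp they ranged from -0.12 to 0.12 (Gp9, against WT) and -0.043 to 0.40 (Plek, against E10.5-induced ME). For the interaction they ranged from -0.29 to 0.63 (Itgb3), -0.51 to 0.35 (Selp) and -1.38 to 0.15 (Treml1).

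Same-numbered libraries of P0 WT and P0 ME had correlations of 0.66, 0.0531, 0.371 and 0.464. For P0 WT 1, 3 and 4 the same-numbered P0 ME library was the closest of the 4, and for P0 WT 2 it was P0 ME 3. No pair of groups had all 4 same-number values above 0.1. The main model did not pair samples, and these values do not settle whether the P0 libraries were paired. With the replicate block Pf4 and Treml1 turned to 0.019 and -0.24 in P0 ME against WT, and the number of called members was that without the block in every comparison.

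Genes called over the whole table moved by more than 1.5 times under some alternatives other than removal of single libraries: 148 ranged from 5 to 804 (P0 ME against WT), 2827 from 1767 to 6492 (E10.5-induced ME against WT), 362 from 206 to 5196 (P0-induced ME against WT), 11 to 2326 for P0-induced against E10.5-induced ME, 950 from 722 to 1644 and 4122 from 2893 to 8053 (RLT Vav Txp against WT and against E10.5-induced ME), 1771 from 481 to 2797 (P28 against P0 WT) and 166 from 41 to 774 (interaction). With 1 library left out the ranges, in that order, were 104 to 575, 893 to 2723, 7 to 649, 4 to 15, 635 to 859, 2061 to 5212, 1137 to 2473 and 11 to 1653. For E10.5-induced ME between ages 4206 then became 2687 to 4735. Treml1 spread widely within groups, at 9 to 491 counts in P0 ME, and Gp6 was seen mainly in single libraries. The part of depth in either was not tested.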
